A study of Mus musculus with 6 samples.

Results

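The genes described here are 33 that build cholesterol and fatty acids, chosen by symbol as a list of pathway enzymes and their regulators, out of 37867 gene models in the deposited table. Each symbol had 1 model in the table, and 32 of the 33 were tested by the authors. The samples were double-positive thymocytes, immature T cells of the thymus that carry both CD4 and CD8, sorted from C57bl6 mice. One group came from mice lacking the microRNA genes mir181a1/b1 and the other from wild type mice, with 3 libraries of RNA each. The labels give no age and no treatment, do not say how the alleles were made or in which cells they were lost, and do not say whether the libraries of a genotype came from separate animals. The authors pooled each genotype into 1 value per gene, in FPKM (fragments per kilobase of transcript, scaled to the size of the library), so the text gives neither values of single libraries nor an SD, and read depth is unknown.

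Cholesterol is built from acetyl-CoA through mevalonate, which is turned into isoprenoid units, squalene, lanosterol and finally cholesterol. Fatty acids are built from the same acetyl-CoA by a carboxylase and a synthase, and are then lengthened by elongases and given double bonds by desaturases. Both branches are switched on by the SREBP transcription factors, which SCAP escorts from the endoplasmic reticulum to the Golgi for cleavage and which the INSIG proteins hold back when sterols are plentiful. Dividing lymphocytes draw on these pathways for new membrane, and mature microRNAs of the miR-181 family lower transcripts that pair with their seed, the stretch from base 2 to base 8.

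The 2 microRNAs whose genes were deleted have 1 seed in common, shown here because the transcripts described below were searched for its match. The sequences are from RefSeq (GRCm38.p6), 5′ to 3′, with the seed in capitals. The genes lie on the plus strand of chromosome 1, miR-181a-5p at chr1:137966468-137966490 and miR-181b-5p at chr1:137966650-137966673. The same mature sequences are also listed at a pair of genes on chromosome 2, which the labels do not name as deleted.
miR-181a-5p: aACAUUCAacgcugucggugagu
miR-181b-5p: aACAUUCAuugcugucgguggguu

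In the authors' deposited table, 7 of the 32 tested genes had a q under 0.05 and were lower in the knockout, 1 was higher, and 24 did not pass. Those that fell were the SREBP genes Srebf1 and Srebf2, their escort Scap, the fatty acid synthase gene Fasn, the desaturase gene Scd1 and the mevalonate enzymes Mvk and Mvd. The 1 that rose was Elovl5, an elongase of polyunsaturated fatty acids. The shares were 21.9% lower and 3.13% higher, against 15.3% lower and 1.79% higher among all 13834 tested models. The median log2 ratio of knockout over wild type was -0.29 for the 32 genes and -0.17 for all tested models. Every ratio in the text sets knockout against wild type in that order, and the error beside a log2 ratio is the standard error (SE) implied by the authors' test statistic. In such bulk samples, fewer cells of a type and less RNA per cell cannot be told apart.

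**Figure D1:**
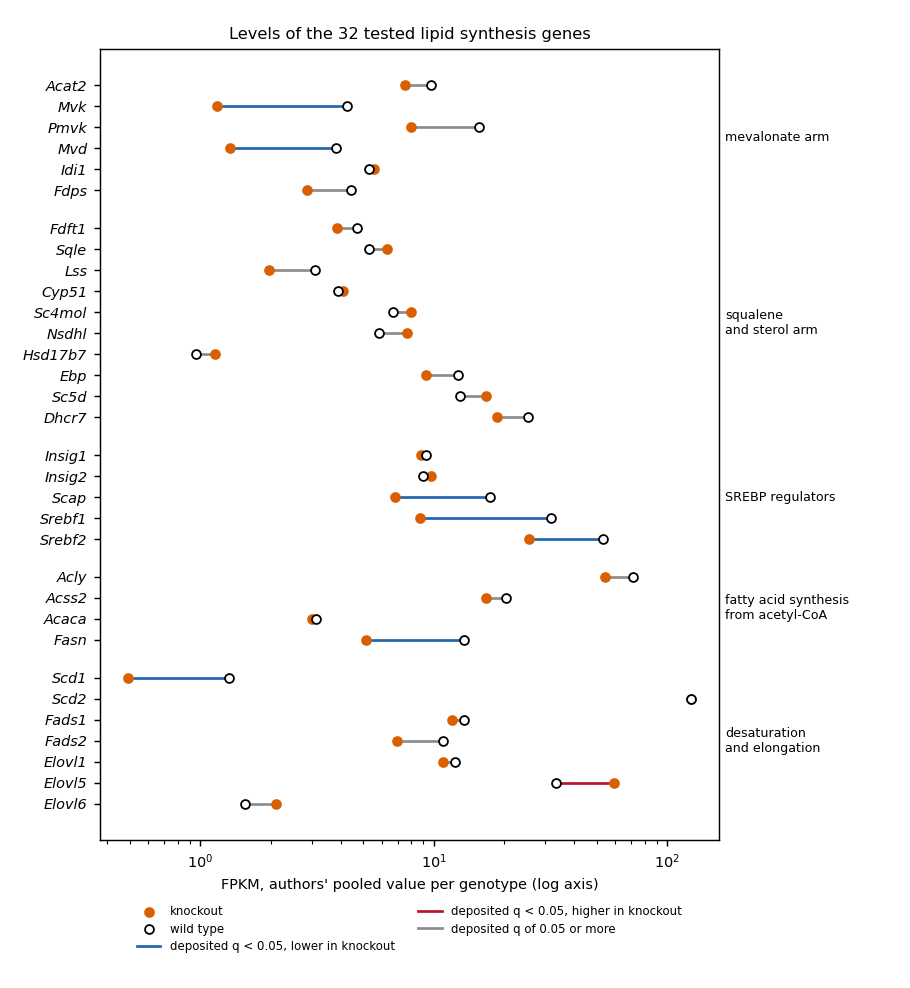
Level of each of the 32 tested genes in FPKM on a log axis, grouped by role, as the authors' pooled value in the knockout (filled) and in the wild type (open). The connecting line is blue for the 7 genes with a deposited q under 0.05 that were lower in the knockout and red for Elovl5, at 59.3 against 33.2 FPKM.

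Of the 8 markers of the double-positive stage, 1 fell, none rose and 7 did not pass. Of all tested models, 15.3% fell and 1.79% rose. With the knockout given first, Cd4 stood at 907 and 732 FPKM, Cd8a at 836 and 906 FPKM, and Rag1 at 1193 and 1220 FPKM. Cd8b1, of the second CD8 chain, stood at 1241 and 1683 FPKM (log2 -0.44, q = 0.154 in the authors' deposited table). The one that fell was Ptcra, which encodes the pre-T cell receptor alpha chain, at 9.59 and 26.1 FPKM (log2 -1.45, q = 2.89e-05 in the authors' deposited table). It was the least abundant of the 8 and was not called in the regression on base composition and length described below (adjusted p of 0.772). Marker lists of other cells were low. The 5 macrophage and dendritic cell markers summed to 1.30 and 2.45 FPKM, with Cd14 at 0 in both. The 5 epithelial and stromal markers summed to 0.0451 and 0.123 FPKM, with Pdgfra at 0 in both, and the 3 erythroid markers to 0.670 and 1.35 FPKM. The 4 B cell markers summed to 15.9 and 20.4 FPKM, of which Cd79b made 15.7 and 20.1. These sums were lower in the knockout, and their part in the results below was not tested. The sum over the whole table was likewise smaller in the knockout, at 297352 against 360688 FPKM.

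Among the 5 regulators, both SREBP genes and Scap fell, against 15.3% lower among all tested models, and the INSIG genes did not pass. Coding genes were also grouped by GC content, as described below. In the groups of Srebf2, Scap and Srebf1, 49.1% to 67.0% of coding genes were called lower. In those of Insig1 and Insig2, 2.61% and 1.31% were. Srebf1, which encodes the factor best known for fatty acid genes, stood at 8.72 against 31.9 FPKM, with the knockout given first. It was 3.65-fold lower (log2 -1.87, SE 0.46, q = 0.000747 in the authors' deposited table), the lowest ratio of the 32. Srebf2, whose product chiefly drives cholesterol genes, stood at 25.5 against 52.9 FPKM (log2 -1.05, SE 0.31, q = 0.0061 in the authors' deposited table). Srebf2 was therefore the more abundant of the pair in both genotypes, by 2.93-fold in the knockout and 1.66-fold in the wild type. Scap, the sterol-sensing escort, stood at 6.83 against 17.4 FPKM (log2 -1.34, SE 0.28, q = 5.35e-05 in the authors' deposited table).

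The genes of the retention proteins did not pass. Insig1 stood at 8.81 against 9.28 FPKM, with a log2 ratio of -0.08 and a 95% interval from the implied error of -0.65 to 0.50. Insig2 stood at 9.72 against 8.95 FPKM, with a log2 ratio of 0.12 and an interval of -0.43 to 0.66. The 3 genes of the factors and their escort were 2.07-fold to 3.65-fold lower in the knockout as deposited, and the difference between them and the INSIG genes was not tested. In the regression described below all 3 calls ended, with Srebf1 at -0.80, Scap at -0.19 and Srebf2 at -0.07 (adjusted p of 0.6003 to 1.00), beside Insig1 at 0.00 and Insig2 at 0.07. In mm9, Srebf1 is listed on chromosome 11 from 59918488 to 60034106, Srebf2 on chromosome 15 from 81977698 to 82043281, and Scap on chromosome 9 from 110235796 to 110287450. The listed span of Srebf1 is also that of Rai1, which stood at 15.4 against 48.6 FPKM and fell too (log2 -1.66, q = 7.16e-07 in the authors' deposited table). The division of reads between them is not stated in the sources.

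In the mevalonate arm, which makes the isoprenoid units, 2 of 6 tested genes fell and none rose, against 15.3% lower among all tested models. Both calls ended in the regression described below (adjusted p of 0.957 for Mvk and 1.00 for Mvd). Mvk, mevalonate kinase, stood at 1.18 against 4.27 FPKM (log2 -1.85, SE 0.62, q = 0.0217 in the authors' deposited table). Mvd, the decarboxylase that makes isopentenyl diphosphate, stood at 1.35 against 3.81 FPKM (log2 -1.50, SE 0.39, q = 0.00169 in the authors' deposited table). Pmvk, the kinase that acts between them, stood at 7.96 against 15.6 FPKM and did not pass (log2 -0.97, SE 0.39, q = 0.0657 in the authors' deposited table). It was the uncalled gene closest to the threshold.

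The other steps of the arm showed no called change. Acat2, an acetyl-CoA acetyltransferase of the cytosol, stood at 7.50 against 9.71 FPKM. Idi1, the isomerase of isopentenyl diphosphate, stood at 5.54 against 5.26 FPKM, and Fdps, which makes farnesyl diphosphate, at 2.86 against 4.42 FPKM. Their q values ran from 0.479 to 0.940 in the authors' deposited table, and the SE of 0.60 for Fdps leaves a wide interval of -1.80 to 0.55. The listed span of Fdps is also that of Rusc1, at 3.90 against 5.17 FPKM. At an unadjusted p under 0.05, 3 genes of this arm were lower and none higher, and the share of all tested models was not counted. Hmgcs1, the synthase of HMG-CoA, was the 1 untested gene. It is listed at 0 FPKM in both genotypes, in a model placed on the unlocalised part of chromosome 13 (13_random, 31679 to 336655 in mm9). The other 3 models of that span are listed at 0 as well, and a listed 0 can be a failed estimate, so nothing is said of its expression.

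In the squalene and sterol arm none of the 10 genes passed in either direction, against 15.3% lower and 1.79% higher among all tested models. In the GC groups of these genes, described below, 0.803% to 21.1% of coding genes were called lower. At an unadjusted p under 0.05, 1 of the 10 was lower, Lss, and none higher, and the share of all tested models was not counted. Lss, which closes the lanosterol ring, stood at 1.97 against 3.10 FPKM (log2 -0.66, SE 0.32, q = 0.160 in the authors' deposited table). Its neighbours in the pathway lay on either side of 0. Fdft1, squalene synthase, stood at 3.84 against 4.67 FPKM, with a wide interval of -1.69 to 1.12 on the log2 scale. The listed span of Fdft1 is also that of Ctsb, at 21.8 against 28.8 FPKM. Sqle, the epoxidase that controls flux through this arm, stood at 6.28 against 5.26 FPKM, and Cyp51, which removes a methyl group from lanosterol, at 4.07 against 3.89 FPKM.

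The later enzymes strip methyl groups and move or reduce double bonds on the way to cholesterol. Sc4mol, a methyl oxidase now named Msmo1, stood at 8.02 against 6.69 FPKM. Nsdhl, the decarboxylating dehydrogenase after it, stood at 7.70 against 5.85 FPKM, and Hsd17b7, the ketoreductase of that step, at 1.15 against 0.961 FPKM. Sc5d, a desaturase of the sterol ring, stood at 16.7 against 12.9 FPKM. Each of these 4 had a higher value in the knockout and none passed. Ebp, an isomerase of the ring, stood at 9.28 against 12.7 FPKM, and Dhcr7, which reduces a ring double bond to give cholesterol, at 18.7 against 25.3 FPKM, the most abundant gene of this arm. The median log2 ratio of the arm was 0.16, against -0.80 in the mevalonate arm and -1.05 among the regulators. In the regression on base composition and length described below, these medians were 0.05, -0.16 and -0.07. The difference between the arms was not tested. The genes of the arm summed to 77.7 FPKM against 81.3, and those of the mevalonate arm to 26.4 against 43.1.

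Of the 4 genes that supply acetyl-CoA or turn it into palmitate, Fasn fell and the others did not pass. Of all tested models, 15.3% were called lower. In the GC group of Fasn, described below, 49.1% of coding genes were. Fasn stood at 5.13 against 13.5 FPKM (log2 -1.39, SE 0.25, q = 2.67e-06 in the authors' deposited table), the smallest q of the 32, and was not called in the regression (adjusted p of 0.474). It is listed in mm9 on chromosome 11 from 120667271 to 120685861. Acly, which frees acetyl-CoA from citrate, was far more abundant, at 54.0 against 71.6 FPKM. Acss2, which makes acetyl-CoA from acetate, stood at 16.7 against 20.4 FPKM, and its listed span is also that of Gss, at 3.55 against 5.99 FPKM. Acaca, the carboxylase that commits acetyl-CoA to this branch, stood at 3.01 against 3.12 FPKM, with an interval of -1.72 to 1.61 that leaves changes of either sign possible. All 4 had a ratio below 0, with a median log2 ratio of -0.35, but Acaca turned to 0.11 when ratios were centred on the median of all tested models and Acss2 to 0.10 in the regression described below.

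Of the 4 desaturases, 1 fell and the others did not pass, against 15.3% lower among all tested models. Scd1, a desaturase that makes oleate, fell to 0.492 from 1.33 FPKM (log2 -1.44, SE 0.39, q = 0.00284 in the authors' deposited table). Its relative Scd2 was the most abundant of the 33 genes, at 126 FPKM in both genotypes, with a log2 ratio of 0.00 and a 95% interval of -0.42 to 0.42. Scd2 exceeded Scd1 by 256-fold in the knockout and 94.3-fold in the wild type. The Scd genes are close copies in 1 cluster on chromosome 19, and how reads common to several copies were counted is not stated in the sources, so the low value of Scd1 is uncertain. Fads1, the front-end desaturase that makes arachidonate, stood at 11.9 against 13.5 FPKM. Fads2, which takes the first step of that route, stood at 6.93 against 10.96 FPKM (log2 -0.66, q = 0.130 in the authors' deposited table).

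Elovl5 was the only gene of the 32 called higher in the knockout, against 1.79% of all tested models. It stood at 59.3 against 33.2 FPKM, a 1.79-fold rise (log2 0.84, SE 0.23, q = 0.0034 in the authors' deposited table), and is listed in mm9 on chromosome 9 from 77765174 to 77832320. The other elongases did not pass. Elovl6, which extends palmitate to stearate, stood at 2.10 against 1.56 FPKM (log2 0.43, q = 0.491 in the authors' deposited table). Elovl1, an elongase of very long saturated chains, stood at 10.9 against 12.3 FPKM, and its listed span is also that of Cdc20, at 21.2 against 43.1 FPKM. The excess of Elovl5 over Elovl1 was 5.42-fold in the knockout and 2.69-fold in the wild type.

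**Figure D2:**
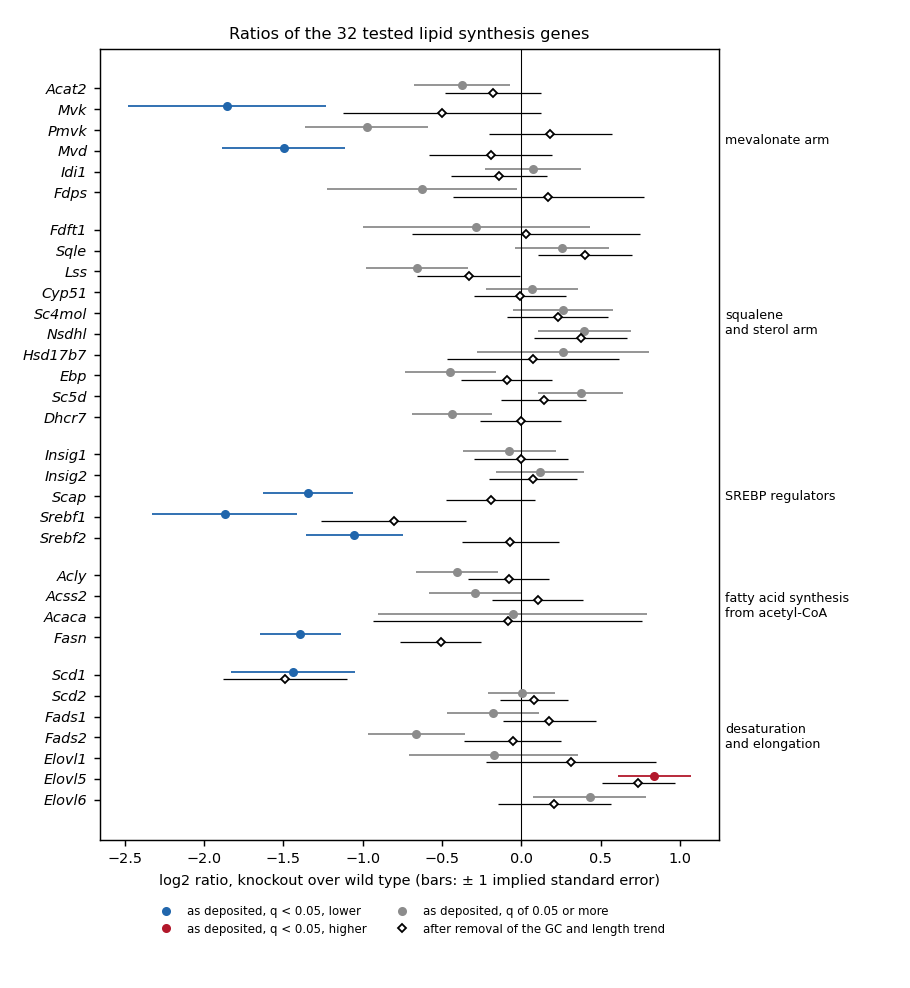
Log2 ratio of knockout over wild type of each tested gene, as deposited (circles, coloured by the deposited q) and after subtraction of the trend with GC content and length (diamonds), with bars of ± 1 implied standard error. After the subtraction Mvk, Mvd, Scap, Srebf1, Srebf2 and Fasn lie nearer 0, while Scd1 stands at -1.49 and Elovl5 at 0.74.

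The ratios of these genes followed the base composition of their transcripts. Over the 32 genes, Spearman's rho between ratio and GC content of 1 reference transcript per gene was -0.871, and over 9962 tested coding genes it was -0.748. These are correlations across genes within 1 pair of pooled values, and genes are not independent replicates. The median GC content was 58.4% for the 7 genes that fell and 49.6% for the 24 not called, and 44.8% for Elovl5. Of the genes that fell, Scd1 had the lowest GC content, 47.1%, and the other 6 lay between Fasn at 57.9% and Mvk at 59.6%. With all coding genes sorted into 10 equal groups by GC content, 7 of the 32 genes fell in the richest 2 groups, and 6 of these 7 were called lower. Of all 1993 coding genes in those groups, 58.1% were called lower. In the other 8 groups, 1 of 25 was called lower and 1 higher, against 8.96% and 1.87% of 7969 coding genes there.

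Set against genes of like GC content, most of the 32 had ordinary ratios. In 21 of them the ratio lay inside the middle 50% of its GC group, 5 lay below it and 6 above. Below it were Mvk, Srebf1, Fasn, Scd1 and Idi1. Above it were Sqle, Nsdhl, Fads1, Elovl1, Elovl5 and Elovl6. Scd1, at a log2 ratio of -1.44, was in a group whose middle 50% ran from -0.29 to 0.21. Elovl5, at 0.84, was in a group whose middle 50% ran from -0.16 to 0.31. Srebf2, Scap and Mvd fell by amounts that were inside the range of their groups.

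**Figure D3:**
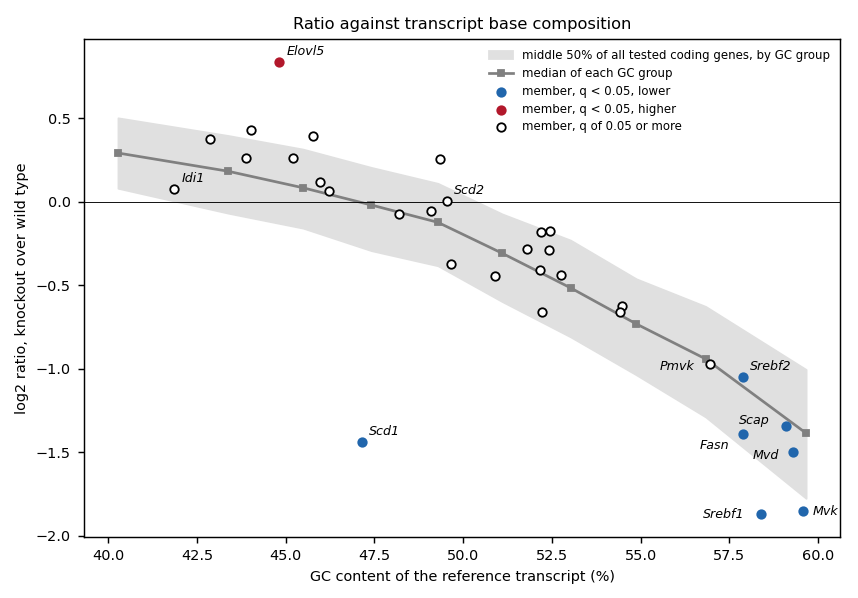
Log2 ratio of knockout over wild type against GC content of the reference transcript for the 32 genes (points), with the median and middle 50% of all tested coding genes in 10 groups by GC content (line and band). Of the 7 blue points, 6 sit at the GC-rich end in or just below the band, while Scd1 and Elovl5 lie well outside it.

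When a regression of the log2 ratio on GC content and transcript length was subtracted, 1 of the 32 genes was called lower and none higher. Of all 9962 genes so treated, 0.934% were called lower and 0.743% higher. Scd1 kept its call, with a log2 value of -1.49 (adjusted p of 0.014), though its mean level was under the 1 FPKM required of genes in the regression. Elovl5 stood at 0.74 (adjusted p of 0.0669), Fasn at -0.51 (adjusted p of 0.474) and Srebf1 at -0.80 (adjusted p of 0.6003). At an unadjusted p under 0.05, 2 genes were lower, Scd1 and Fasn, and 1 was higher, Elovl5. The share of all genes under an unadjusted p of 0.05 was not counted, here or elsewhere in the text. Srebf2 at -0.07, Scap at -0.19, Mvd at -0.19 and Mvk at -0.50 had adjusted p values of 0.957 to 1.00. Centring all ratios on their median had instead left the 7 and the 1 as they were, with 10.8% of all models then called lower and 3.6% higher. The median of the 32 genes after the subtraction moved from -0.29 to 0.00. The adjusted p values here are Benjamini-Hochberg values over the 9962 genes, from normal tails of the value over its implied error. Whether the relation with base composition arose in the cells or in the making of the libraries cannot be told apart with these pooled values.

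The match of the miR-181 seed, TGAATGT, occurs in the 3′ UTR of 5 of the 33 genes (15.2%) in 1 reference transcript per gene (GENCODE M21, GRCm38), and in 17.1% of 9972 tested coding genes. The 5 are Fdft1, Nsdhl, Hsd17b7, Insig2 and Scd1. The median length of the 3′ UTR was 1498 bases for the 33 genes and 998 for all tested coding genes. Of the 5, Scd1 fell and the other 4 were not called, and Elovl5 has no match. The sites are printed because they are the only stretches of these 3′ UTRs that pair with the whole seed. They read 5′ to 3′ in the sense of the transcript, with the match in capitals. Fdft1 is at chr14:63145493-63145519 (minus strand), Nsdhl at chrX:72957989-72958015 (plus), Insig2 at chr1:121305195-121305221 (minus) and Scd1 at chr19:44395423-44395449 (minus). Hsd17b7 has 2 matches, at chr1:169952489-169952515 and chr1:169949583-169949609 (minus).
Fdft1: ctgcctcagccttcTGAATGTacgagt
Nsdhl: gctcaaagtattgaTGAATGTaatccc
Hsd17b7 first: tcaagagaaaggtgTGAATGTgtttgg
Hsd17b7 second: tcctgggctcttgaTGAATGTatgaac
Insig2: gggctttgtttagaTGAATGTgcttgg
Scd1: taacagtttccagaTGAATGTactaat
In Fdft1, Nsdhl, Scd1 and the second site of Hsd17b7 the match is followed by an A, the form known to be bound best. A match of letters is a description and not a site in use.

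The promoters were searched on both strands for letters of the factors named above, from 250 bases before to 50 after each start (RefSeq, GRCm38.p6). Of the 33 genes, 27 matched an entry, with 36 start sites. Fdps, Fdft1, Sqle, Scd1, Scd2 and Fads1 had none. The core of sterol regulatory elements, CACCCCA, was in the windows of 4 genes, Acat2, Hmgcs1, Srebf2 and Elovl1. This is 11.1% of the 36 windows against 7.62% of all 32851 searched. Those 32851 leave out 1 chromosome, on which none of the 33 genes is listed. The NF-Y box CCAAT, bound by a factor that works beside SREBPs, was in 63.9% of the windows against 37.4% of all. The GC box GGGCGG was in 75% against 35.7%, and the E box CACGTG in 19.4% against 7.15%. Windows of 1 gene can overlap, none of these motifs contains another, and the windows were not matched for base composition. Of the 6 genes that fell and had an entry, 5 held CCAAT, 5 held GGGCGG, 1 held CACGTG and 1 held CACCCCA. Of all 27 genes with an entry, 22 held CCAAT, 22 held GGGCGG, 6 held CACGTG and 4 held CACCCCA.

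The 4 windows around CACCCCA are shown because SREBPs are known to act through elements with this core. Here too a match of letters is a description and not a site in use. Capitals mark the core. They lie at chr17:12960890-12960916 for Acat2 (minus strand), chr13:119690205-119690231 for Hmgcs1 (plus), chr15:82147098-82147124 for Srebf2 (plus) and chr4:118429621-118429647 for Elovl1 (plus).
Acat2: ggatcctccaCACCCCAccctaacccg
Hmgcs1: gtcaccgtctCACCCCActtcccaggt
Srebf2: gacgcaccatCACCCCAtgagccgctt
Elovl1: acccaccctcCACCCCAtgcccaacgt
Of these, Srebf2 was lower in the knockout as deposited but not called in the regression, where it stood at -0.07. Acat2 and Elovl1 were not called, and Hmgcs1 was not tested.

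**Figure D4:**
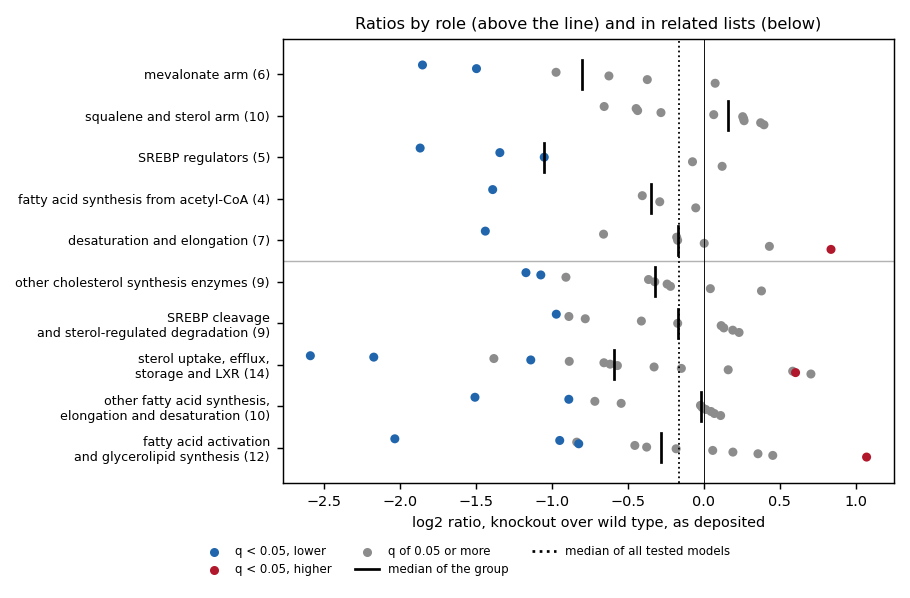
Log2 ratio of knockout over wild type, as deposited, for the 32 genes by role (above the line) and for 54 tested genes of 5 related lists (below it), with the number tested in brackets. Vertical bars are group medians and the dotted line is the median of all tested models, -0.17; blue and red points have a deposited q under 0.05.

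Related genes from 5 lists were read in the same table, and of their 54 tested genes 11 fell and 2 rose (20.4% and 3.70%), against 15.3% and 1.79% of all tested models. When ratios were centred on the median of all tested models, 7 were called lower and 3 higher. Of all models so centred, 10.8% were called lower and 3.6% higher. After removal of the trend with GC content and length, which called 0.934% of genes lower and 0.743% higher, none of the 54 was called. At an unadjusted p under 0.05, 3 were then lower and 2 higher, and the share of all genes was not counted. Among other cholesterol synthesis enzymes, 2 of 9 fell and none rose. Among those that fell was Cyb5r3, a reductase that feeds electrons to these enzymes, at 7.15 against 16.1 FPKM (log2 -1.17, q = 0.00113 in the authors' deposited table). Among genes that cleave SREBPs or degrade sterol-regulated proteins, only the site-1 protease gene Mbtps1 passed of 9, at 39.8 against 78.0 FPKM (log2 -0.97, q = 0.000503 in the authors' deposited table). The site-2 protease gene Mbtps2 stood at 8.73 against 7.44 FPKM.

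In the list of sterol uptake, efflux and storage, 3 of 14 tested genes fell and 1 rose. Among all tested models 15.3% fell and 1.79% rose. Nr1h2, which encodes the sterol-sensing receptor LXR beta, stood at 7.79 against 35.2 FPKM (log2 -2.18, SE 0.36, q = 1.52e-07 in the authors' deposited table). Apoe, a lipid carrier abundant in macrophages, stood at 3.19 against 19.3 FPKM (log2 -2.59, SE 0.69). Of the macrophage list above, Itgam, the only marker tested, stood at 1.02 against 2.11 FPKM. The untested ones were Csf1r at 0.0826 against 0.123, Itgax at 0.0989 against 0.123, Emr1 at 0.0976 against 0.0959, and Cd14 at 0 in both. The part of macrophage RNA in the value of Apoe was not tested. The sterol carrier gene Stard3 stood at 11.6 against 25.6 FPKM. Lipa, the lysosomal lipase that frees cholesterol from its esters, rose to 225 from 148 FPKM (log2 0.60, q = 0.0362 in the authors' deposited table).

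Among other fatty acid genes, 2 of 10 tested fell and none rose, and 1 was called lower after centring. Over all tested models 15.3% fell and 1.79% rose, and after centring 10.8% were called lower and 3.6% higher. Mcat, of mitochondrial fatty acid synthesis, stood at 1.66 against 4.74 FPKM. Gpsn2, a reductase of the elongation cycle, stood at 37.6 against 69.7 FPKM, and its log2 value turned from -0.89 to 0.27 when the trend with GC content and length was removed. Among genes of fatty acid activation and glycerolipid synthesis, 3 of 12 fell and 1 rose, and after centring none was called lower and 1 higher. Acsl4, which activates arachidonate, rose to 21.7 from 10.3 FPKM (log2 1.07, SE 0.26, q = 0.000496 in the authors' deposited table). The acyltransferase genes Agpat3 and Agpat1 stood at 20.2 against 39.1 and 15.9 against 28.1 FPKM, and Dgat2 at 0.103 against 0.422 FPKM. Agpat1 turned from -0.83 to 0.39 when the trend was removed. Acsl4 then stood at 0.72 (adjusted p of 0.140).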

How the data were processed

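RNA of 6 libraries was compared, 3 per genotype. Per the labels' protocols, cells were sorted and the TruSeq RNA kit was used. The submitters' processing notes name TopHat2 and mm9. Tools for counting and testing are not stated there. The authors deposited 1 FPKM value per genotype, a log2 ratio, a test statistic (a score, read here as a normal z), a p-value and a q-value per model. Checked on the file, the q-values were Benjamini-Hochberg values over 13834 tested models (largest difference 1.89e-06) and the ratios those of the deposited FPKM. Reads per library were not used here, so depth is unknown and precision comes from the deposited statistic alone. The p-values may measure technical spread alone.

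Members and lists were chosen with earlier results of these data known. Every member is named, as are called genes of the other lists, of which some are not reported here. A symbol was matched to a model's comma-separated names, and the row with the highest summed FPKM was kept. Of the 33 genes, 16 share their listed span with at least 1 other model. A call is a deposited q under 0.05. The implied standard error is the size of the log2 ratio over that of the statistic. Reference transcripts were the principal coding ones of GENCODE M21. Table names were matched to these directly or through RefSeq synonyms, and transcripts over 1.2 times the model's span were left out. A robust regression (statsmodels 0.14.6) on cubic splines with 5 degrees of freedom each for GC content and log2 length was fitted to 9011 genes averaging 1 FPKM or more and applied to 9962.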

Additional observations from a re-analysis of the deposited data

How the results depend on the processing

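The count of genes lower in the knockout was 7 as deposited, and 1 once the trend with GC content and length was taken out. The count of genes higher was 1 as deposited and 0 after that step, where 1 gene was higher at an unadjusted p under 0.05 with the normal tails used there. The counts moved by less than 1.5 times with ratios centred on the median, without models under 1 FPKM, and at a q under 0.01. The same held when a tested row was kept first. Without models under 1 FPKM, 6 genes were lower. The called gene left out there was Scd1, at a mean of 0.913 FPKM, the only call that the trend removal kept. Centring kept all 32 genes on their side of the threshold. Centring changed the sign of 2 genes and the trend removal of 8, none of them called. The trend removal ended the call of 7 of the 8 called genes, with adjusted p values of 0.0669 to 1.00. The median log2 ratio of the 32 genes was -0.29 as deposited, -0.12 after centring and -0.0031 after the trend removal, and -0.28 and -0.25 with pseudocounts of 0.1 and 1 FPKM. Of the 54 genes of related lists, those called lower went from 11 to 7 after centring and to 0 after the trend removal. The shares of all genes called lower in these settings were 15.3%, 10.8% and 0.934%. No paired analysis was possible because the table holds 1 pooled value per genotype, and leaving out a library was not run for the same reason. Depth is unknown, and genes with implied errors up to 0.85, such as Acaca, could hide sizeable changes.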
